A study of Pogona vitticeps with 24 samples.

Results

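Chromatin modifiers and remodellers were examined in the dental tissues of the bearded dragon *Pogona vitticeps*. The genes were taken by symbol alone, as every entry of the deposited expression table that starts with KDM, KMT, HDAC, SETD, SMARC or ARID, or with CHD or SIRT followed by a digit. This gave 79 of the 11126 genes of the table: 15 KDM, 8 KMT, 10 HDAC, 11 SETD, 12 SMARC, 9 CHD, 7 ARID and 7 SIRT genes. Relatives without an entry of their own, such as *KDM3A*, *HDAC10* and *SMARCD3*, were not analysed here.

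The tissues came from hatchlings of 2 genotypes, the Scaleless mutant (*Sca*/+), which carries 1 mutated copy of *EDA*, and wild-type (WT) animals, with 3 animals of each. Epithelium and mesenchyme of the successional dental lamina were laser-captured from the posterior jaw, where the teeth are acrodont (fused to the crest of the jaw and kept for life), and from the anterior jaw, where the teeth of WT animals are pleurodont (attached to the inner side and replaced). Anterior thus names the jaw position in both genotypes and not the tooth type of *Sca*/+ animals, whose foremost teeth are known to be altered. The 24 libraries form 8 groups of 3, but the table holds only 1 value per gene and group, so the spread between animals could not be measured. By its title each value is a mean of normalized counts in log2 CPM. CPM is the count of a gene relative to the total count of its library, here after a normalization whose factors are not given. One of the 8 columns, WT posterior epithelium, was set aside because 11121 of its entries form a filled series that climbs by 1e-09 from row to row. The 7 groups used were *Sca*/+ posterior epithelium, *Sca*/+ anterior epithelium, WT anterior epithelium, *Sca*/+ posterior mesenchyme, WT posterior mesenchyme, *Sca*/+ anterior mesenchyme and WT anterior mesenchyme. The *Sca*/+ animals were heterozygous, and their exact dental phenotype could not be scored before the tissue was processed, though by eye all 3 were judged to have abnormal anterior teeth.

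As background, DNA in the nucleus is wound around histones, and enzymes mark the histone tails to set which genes can be read. Histone methyltransferases of the KMT and SETD families write methyl groups, demethylases of the KDM family remove them, and deacetylases of the HDAC and sirtuin families take off the acetyl groups of open chromatin. Remodellers of the SMARC and CHD families spend ATP to slide, evict or space nucleosomes, and several ARID proteins are the DNA-binding partners of one such machine, the BAF complex. In cultured mammalian dental mesenchymal cells the demethylase KDM6B is known to favour odontogenic differentiation, and in mouse and human the remodeller CHD7 is needed for neural crest, the source of dental mesenchyme.

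In the 7 columns the CPM values are whole multiples of a step, which was taken as 1 count. A mean of 3 libraries scaled to CPM one by one would not be expected to hold such a step, so what was averaged or pooled in a column is not known, and all counting intervals rest on reading the step as 1 count. The columns hold between 789353 (*Sca*/+ anterior mesenchyme) and 3264515 (*Sca*/+ posterior epithelium) such steps. Their CPM values summed to between 861122 (WT anterior epithelium) and 1047963 (WT posterior mesenchyme). Division by the library total alone could not give the larger sums, so the values carry a further scaling that differs between columns. *EDA* stood at 18.6 CPM in *Sca*/+ against 22.7 CPM in WT anterior epithelium, at 16.9 against 5.05 CPM in anterior mesenchyme and at 6.23 against 11.1 CPM in posterior mesenchyme. The labels do not say how the mutation acts on the RNA, so these levels do not check the genotype. The compartments kept their markers: 11 of 15 epithelial markers were called higher and 19 or 20 of 20 mesenchymal markers lower in epithelium than in mesenchyme in each of 3 comparisons. Epithelial columns were not free of the other compartment, with the 20 mesenchymal markers summing to 12847 to 22296 CPM there against 60248 to 164071 CPM in mesenchyme. Nor were the mesenchymal columns, in which the 15 epithelial markers summed to 4224 to 8853 CPM, with 15211 to 20074 CPM in epithelium. The 4 blood and immune markers in the table summed to 376.0 CPM in WT anterior mesenchyme and to 35.7 to 191.2 CPM in the other columns.

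A difference was called when it reached 1 log2 unit and its 95% counting interval left out 0. Such an interval covers counting error only and says nothing of the variation between animals, so no p-value is given, and fewer cells with a gene and less RNA per cell cannot be told apart. Of the 79 genes, 72 averaged 3 log2 CPM or more across the 7 columns and were compared, among 9987 genes of the whole table that did so. There were 9 comparisons, 3 between genotypes, 3 between positions and 3 between compartments. Those of 1 kind use separate columns, but comparisons of different kinds share columns, and all tissues of a genotype came from the same animals. Levels are not compared between genes, because transcript lengths were not used here.

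At least 1 call was made for 30 of the 72 chromatin genes (41.7%), beside 64.5% of all genes. Over the 9 comparisons 70 of 648 gene-by-comparison differences were called (10.8%), 31 of them higher and 39 lower, beside 18.6% over all genes. The other 42 (58.3%, beside 35.5% of all genes) were never called. Without the filter on low values the shares never called were 54.4% and 33.9%. When every column had to hold 20 steps or more for a gene, they were 66.7% and 52.6%. The chromatin genes had a higher median level, 6.22 log2 CPM against 5.22 for all genes, and the part of level in these shares was not tested beyond such restrictions. Without the *Sca*/+ anterior mesenchyme column, the shallowest, 62.5% of the chromatin genes and 43.4% of all genes were never called. The comparisons with that column were simply left out there, so these shares could only stay the same or rise.

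The median range of a chromatin gene over the 7 columns was 1.14 log2 units, beside 1.48 for all genes. *SMARCA2*, *KMT2E*, *KMT2C*, *SMARCA1* and *KDM5B*, the 5 with the highest mean CPM without regard to length, were called in no comparison. *HDAC5*, a class IIa deacetylase that shuttles between nucleus and cytoplasm, had the narrowest range, 0.25 log2 units, and lay between 155.8 and 185.4 CPM in every column. *SMARCD1*, an accessory subunit of BAF, followed with 0.34 log2 units, and *KDM3B*, a demethylase of histone H3, with 0.38. The widest ranges belonged to *SETDB2* (4.58), *HDAC9* (3.73) and *HDAC8* (2.62), all of which fell under 20 steps in at least 1 column. Of the 12 genes that did so 10 had a call, against 20 of the 60 that did not. Those 60 were never called in 66.7% of cases, beside 52.6% of all genes with 20 steps or more in every column. The share of all genes under 20 steps was not read, so this split is not particular to the chromatin genes as far as is known.

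**Figure D1:**
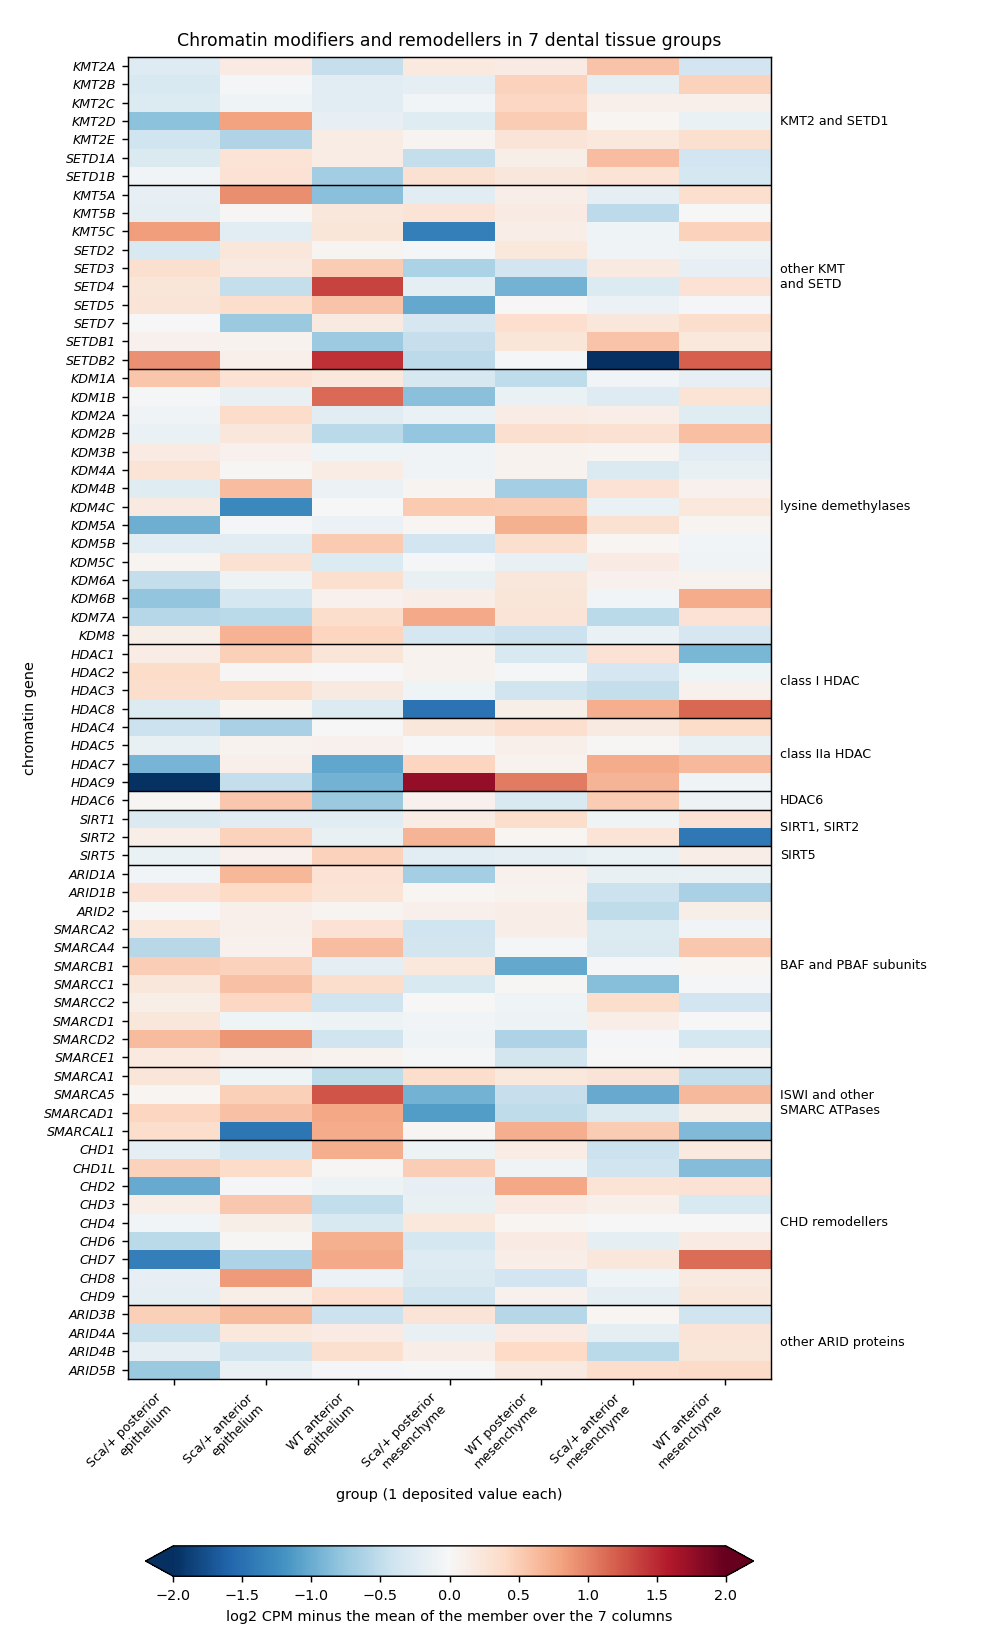
Each row is one of the 72 chromatin genes and each column one of the 7 groups, and the colour gives the log2 CPM minus that gene's own mean over the columns. Most rows are pale, such as *HDAC5* with a range of 0.25 log2 units, while *SETDB2*, *HDAC9* and *HDAC8* span 4.58, 3.73 and 2.62.

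Between the genotypes, anterior epithelium held the most calls, as it did over all genes. There 6 of the 72 genes were higher and 7 lower in *Sca*/+ than in WT tissue, beside 11.5% and 9.34% of all genes, and rescaling the columns to the same upper quartile changed this split to 9 and 7. In anterior mesenchyme 4 were higher and 2 lower, beside 10.1% and 6.99% of all genes. In posterior mesenchyme 1 was higher and 4 lower, beside 7.89% and 7.37%. The median difference of the 72 genes was 0.07, -0.04 and -0.18 log2 units in these 3 comparisons, with all genes at 0.00, 0.04 and -0.00. Over the 3 genotype comparisons 21 genes were negative each time and 18 positive each time (29.2% and 25%), beside 18.5% and 20.6% of all genes. *SETDB2* was called lower in both anterior tissues, in the mesenchyme on 1 step in the *Sca*/+ column. Among 20 mesenchymal markers the *Sca*/+ anterior mesenchyme had 8 higher and 1 lower (median 0.74) and the *Sca*/+ posterior mesenchyme none higher and 3 lower (median -0.63). The part of such tissue content in the genotype differences was not tested.

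Between the positions, 3 genes were higher and 4 lower in posterior than in anterior WT mesenchyme, beside 8.01% and 6.86% of all genes. In *Sca*/+ mesenchyme 2 were higher and 5 lower, beside 7.1% and 9.13%. In *Sca*/+ epithelium 3 were higher and 5 lower, beside 6.72% and 6.62%, and upper quartile scaling changed this split to 2 and 7. The median difference of the 72 genes was 0.01 log2 units in WT mesenchyme, -0.15 in *Sca*/+ mesenchyme and -0.22 in *Sca*/+ epithelium. All genes were at 0.03 in the last. After centring on the median of all genes these were -0.03, -0.16 and -0.25, so the first changed sign. Over the 3 position comparisons 16 genes were negative each time and 6 positive each time (22.2% and 8.33%), beside 14.2% and 17.6% of all genes. Mesenchymal markers were higher in posterior than in anterior *Sca*/+ epithelium for 8 of 20 (median 0.94) and in posterior than in anterior WT mesenchyme for 7 of 20 (median 0.86), none of them lower, and their part in the position differences was not tested.

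Between the compartments, 4 genes were higher and 4 lower in epithelium than in mesenchyme of the WT anterior jaw, beside 8.02% and 11.9% of all genes. In the *Sca*/+ anterior jaw 4 were higher and 3 lower, beside 10.2% and 13.7%. In the *Sca*/+ posterior jaw 4 were higher and 5 lower, beside 11.9% and 13.6%, and upper quartile scaling changed this split to 6 and 4. The chromatin genes had median differences of 0.01, 0.12 and 0.07 log2 units, with all genes at 0.06, 0.05 and 0.04. Over the 3 compartment comparisons 20 genes were positive each time and 14 negative each time (27.8% and 19.4%), beside 26.3% and 22.3% of all genes.

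**Figure D2:**
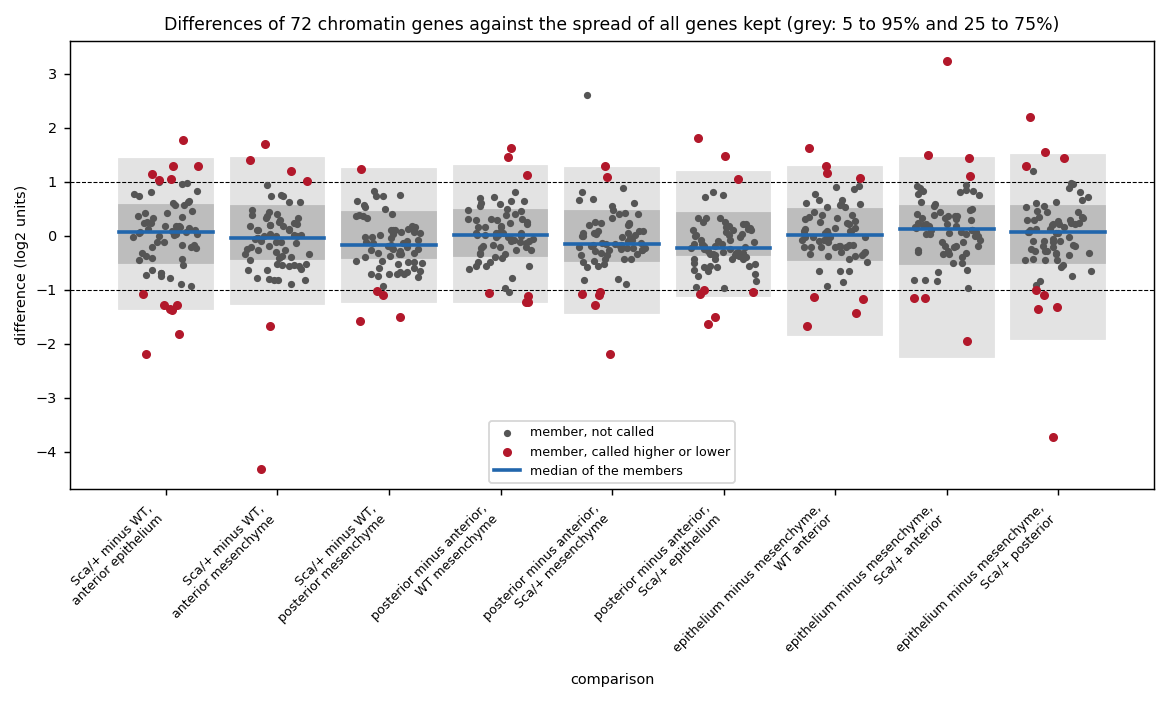
Each point is the log2 difference of one of the 72 chromatin genes in one of the 9 comparisons, red where called, with the median of the chromatin genes in blue and the spread of all 9987 genes in grey. The blue lines lie between -0.22 and 0.12, and the points farthest from 0 are *SETDB2* at -4.32 in anterior mesenchyme and *HDAC9* at -3.73 between the *Sca*/+ posterior compartments.

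The KMT2 and SETD1 genes encode the writers of the lysine mark of active promoters and enhancers on histone H3, with the exception of *KMT2E*, which shares the name but not that activity. All 7 were compared, and 2 had a call, 3 calls in all, beside 64.5% of all genes with a call. *KMT2D*, which marks enhancers in mammals, stood at 47.0 CPM in *Sca*/+ posterior, 146.0 in *Sca*/+ anterior and 74.4 in WT anterior epithelium, and at 70.2 in *Sca*/+ posterior, 118.7 in WT posterior, 85.9 in *Sca*/+ anterior and 75.8 in WT anterior mesenchyme. Its lowest and its highest level were thus the posterior and the anterior epithelium of the same *Sca*/+ animals, and the difference was -1.64 log2 units (counting interval -1.93 to -1.35). The other 6 genes of the group differed in that comparison by less than 1 log2 unit, and the median of the 7 was -0.34. *SETD1A*, a catalytic subunit of a COMPASS complex, was at 78 CPM in *Sca*/+ against 39.0 CPM in WT anterior mesenchyme, a difference of 1.00 (0.45 to 1.56) at the edge of the rule. In the posterior *Sca*/+ mesenchyme it was at 36.3 CPM against 78 CPM in the anterior (-1.11, -1.64 to -0.57), so both of its calls rest on the high value in the shallowest column. *KMT2A*, *KMT2B*, *KMT2C*, *KMT2E* and *SETD1B* were called nowhere.

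Of the 10 other KMT and SETD methyltransferases compared, 6 had a call, beside 64.5% of all genes. *SETDB2*, which in mammals methylates the histone H3 lysine of silent chromatin, was at 21.5 CPM in *Sca*/+ posterior, 12.2 in *Sca*/+ anterior and 31.2 in WT anterior epithelium, and at 7.93 in *Sca*/+ posterior, 11.1 in WT posterior, 1.3 in *Sca*/+ anterior and 26.0 in WT anterior mesenchyme. Both anterior *Sca*/+ tissues lay below their WT counterparts, at -1.35 for the epithelium (-2.12 to -0.61) and -4.32 for the mesenchyme (-9.66 to -1.75). The second of these rests on 1 step in the *Sca*/+ column against 36 in the WT column, and its size is hardly bounded. With the same single step, its *Sca*/+ anterior epithelium was higher than the mesenchyme by 3.23 (0.62 to 8.59). In the *Sca*/+ posterior jaw, where that column plays no part, the epithelium was also higher, by 1.44 (0.59 to 2.38). Posterior WT mesenchyme was lower than anterior by -1.22 (-2.30 to -0.25). Its relative *SETDB1* was called once, at 27.2 CPM in posterior against 55.9 CPM in anterior *Sca*/+ mesenchyme (-1.04, -1.67 to -0.41).

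The writers of methyl groups on histone H4 had their extremes in different columns. *KMT5A*, which adds the first methyl group and is known for its role in the cell cycle, was at 33.7 CPM in *Sca*/+ against 9.92 CPM in WT anterior epithelium (1.76, 0.92 to 2.71). It was lower in posterior than in anterior *Sca*/+ epithelium, at 15.9 against 33.7 CPM (-1.09, -1.64 to -0.54). In the mesenchyme columns it kept to 15.3 to 22.4 CPM, so the epithelium was above the mesenchyme in the *Sca*/+ anterior jaw (1.11, 0.21 to 2.13) and below it in the WT anterior jaw (-1.17, -2.20 to -0.22). The lower columns held few steps, 12 in *Sca*/+ anterior mesenchyme and 14 in WT anterior epithelium, and the latter also gave the genotype call. *KMT5C*, which adds further methyl groups at heterochromatin, was at 39.2 CPM in *Sca*/+ posterior, 19.0 in *Sca*/+ anterior and 26.2 in WT anterior epithelium, and at 8.50 in *Sca*/+ posterior, 24.1 in WT posterior, 20.8 in *Sca*/+ anterior and 30.3 in WT anterior mesenchyme. Its highest and lowest columns were the epithelium and mesenchyme of the *Sca*/+ posterior jaw, 2.20 log2 units apart (1.43 to 3.08). The low *Sca*/+ posterior mesenchyme also gave its calls against WT (-1.50, -2.53 to -0.53) and against the anterior *Sca*/+ mesenchyme (-1.29, -2.41 to -0.18), on 15 steps. *KMT5B*, with the same activity in mammals, lay between 80.7 and 141.1 CPM and was called nowhere.

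*SETD4* was at 20.5 CPM in *Sca*/+ against 72.3 CPM in WT anterior epithelium (-1.82, -2.37 to -1.29). The WT anterior epithelium was its highest column, also above the WT anterior mesenchyme at 34.6 CPM (1.06, 0.55 to 1.59), and posterior WT mesenchyme was its lowest at 14.8 CPM (-1.22, -2.14 to -0.38). *SETD5* was at 30.6 CPM in *Sca*/+ against 62.1 CPM in WT posterior mesenchyme (-1.02, -1.57 to -0.48), and the *Sca*/+ posterior epithelium at 74.7 CPM was above the same mesenchyme column by 1.29 (0.86 to 1.74). *SETD2*, the writer of the mark left behind elongating RNA polymerase, along with *SETD3*, best known as an actin methyltransferase, and *SETD7*, had no call.

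Among the 15 lysine demethylases 10 had no call, beside 35.5% of all genes. The 10 include *KDM1A*, the first histone demethylase to be described, and both *KDM6A* and *KDM6B*, the erasers of the Polycomb mark. *KDM6B* had 26.8 CPM in *Sca*/+ posterior, 36.1 in *Sca*/+ anterior and 48.9 in WT anterior epithelium, and 50.4 in *Sca*/+ posterior, 54.7 in WT posterior, 44.2 in *Sca*/+ anterior and 77.2 in WT anterior mesenchyme. Its *Sca*/+ value was the lower of the pair in each of 3 genotype comparisons, as for 21 of the 72 genes, but no difference reached 1 log2 unit. *KDM4C*, which acts on the lysine mark of silent chromatin, was at 12.2 CPM in *Sca*/+ anterior epithelium and at 27.3 to 43.0 CPM in every other column. That low column gave all 3 of its calls, -1.28 against WT (-2.06 to -0.54), 1.47 for posterior against anterior *Sca*/+ epithelium (0.84 to 2.16) and -1.16 against the *Sca*/+ anterior mesenchyme (-2.06 to -0.25).

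*KDM1B*, a relative of *KDM1A* needed for maternal imprints in mouse oocytes, was at 21.0 CPM in *Sca*/+ against 51.0 CPM in WT anterior epithelium (-1.28, -1.86 to -0.72). *KDM2B*, which brings a Polycomb complex to CpG islands, was at 28.9 CPM in *Sca*/+ against 62.1 CPM in WT posterior mesenchyme (-1.10, -1.66 to -0.56). The same low column was below the anterior *Sca*/+ mesenchyme (-1.08, -1.68 to -0.48), and in the WT anterior jaw *KDM2B* was lower in epithelium, at 34 CPM, than in mesenchyme, at 75.1 CPM (-1.14, -1.67 to -0.64). *KDM7A*, an eraser of silencing marks, was highest in *Sca*/+ posterior mesenchyme, at 133.1 CPM against 54.6 CPM in the anterior (1.28, 0.81 to 1.79). The epithelium of that jaw region was at 53.2 CPM (-1.32, -1.62 to -1.03). *KDM5A*, an eraser of the active promoter mark, was at 48.2 CPM in that epithelium against 97.4 CPM in the mesenchyme (-1.02, -1.34 to -0.69).

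Class IIa deacetylases mostly act as signal-dependent co-repressors. Of the 4 members, 2 were lower in epithelium by at least 0.58 log2 units in all 3 compartment comparisons, as were 9.7% of all genes. *HDAC4* was also lower each time, by 0.38 to 0.83 log2 units, and *HDAC5* was not. *HDAC7*, known in mouse for keeping vessel walls intact, was at 30.5 CPM in *Sca*/+ posterior, 62.5 in *Sca*/+ anterior and 28.3 in WT anterior epithelium, against 78.2 in *Sca*/+ posterior, 61.2 in WT posterior, 97.6 in *Sca*/+ anterior and 90.9 in WT anterior mesenchyme. Epithelium was below the matched mesenchyme by -1.36 (-1.75 to -0.97) in the *Sca*/+ posterior jaw and by -1.68 (-2.23 to -1.16) in the WT anterior jaw. In the *Sca*/+ anterior jaw the difference, -0.64, was not called. There the epithelium was higher than its WT counterpart by 1.14 (0.62 to 1.69) and above the posterior *Sca*/+ epithelium, which stood at -1.04 relative to it (-1.43 to -0.65).

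*HDAC9*, which in mouse restrains muscle gene programmes, was at 3.11 CPM in *Sca*/+ posterior, 8.79 in *Sca*/+ anterior and 6.38 in WT anterior epithelium, against 41.4 in *Sca*/+ posterior, 25 in WT posterior, 19.5 in *Sca*/+ anterior and 11.6 in WT anterior mesenchyme. In log2 CPM its epithelial values were 1.64, 3.14 and 2.67 in that order, and its mesenchymal values ran from 3.53 to 5.37. It thus passed the filter of 3 log2 CPM through the mesenchyme, and its compartment differences are not independent of that filter. All 3 epithelial values lay below all 4 mesenchymal values, but most of them rest on few steps. The epithelium held 10 steps in *Sca*/+ posterior, 18 in *Sca*/+ anterior and 9 in WT anterior tissue. The anterior mesenchyme held 15 steps in *Sca*/+ and 16 in WT animals. The closest values were those of *Sca*/+ anterior epithelium and WT anterior mesenchyme. Their counting intervals overlapped, so the order of this pair is not settled. The compartment difference was -3.73 (-4.85 to -2.77) in the *Sca*/+ posterior jaw, -1.15 (-2.22 to -0.06) in the *Sca*/+ anterior jaw and -0.86, not called, in the WT anterior jaw. In mesenchyme the posterior value was the higher, by 1.08 (0.27 to 1.99) in *Sca*/+ and 1.12 (0.17 to 2.11) in WT animals, while in *Sca*/+ epithelium it was the lower (-1.50, -2.78 to -0.31). The bone and dentin markers compared, 5 in all, summed to 5447 CPM in *Sca*/+ posterior and 3702 in WT posterior against 2061 in *Sca*/+ anterior and 1480 in WT anterior mesenchyme, and the 1 muscle marker in the table, *ACTA1*, stood at 258.3 and 261.4 CPM in the *Sca*/+ and WT posterior against 23.4 and 7.9 CPM in the *Sca*/+ and WT anterior mesenchyme. The part of such cells in the position differences of *HDAC9* and of the other chromatin genes was not tested. *HDAC4*, a regulator of cartilage maturation in mouse, ran from 143.1 to 222.4 CPM in epithelium and from 253.7 to 288.7 CPM in mesenchyme without a called difference.

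Vessel cells followed the same divide as these deacetylases. All 6 endothelial markers that were compared were lower in epithelium in each of 3 compartment comparisons, and the 7 in the table summed to 35.7 to 85.0 CPM in epithelium against 1242 to 2844 CPM in mesenchyme. Between posterior and anterior *Sca*/+ epithelium 5 of the 6 endothelial markers were higher, with a median of 1.38, where *HDAC7* and *HDAC9* were lower. The part of vessel content in the compartment differences of *HDAC7* and *HDAC9* was not tested.

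Class I deacetylases, which include catalytic cores of nuclear co-repressor complexes, had a call for 2 of 4 members, beside 64.5% of all genes. *HDAC1* was at 72.8 CPM in *Sca*/+ against 31.8 CPM in WT anterior mesenchyme (1.20, 0.60 to 1.80). The WT anterior mesenchyme was its lowest column and also lay under the WT anterior epithelium at 70.8 CPM (1.16, 0.63 to 1.70). *HDAC8*, which deacetylates cohesin, was at 3.40 CPM in *Sca*/+ posterior mesenchyme, against 10.2 CPM in WT posterior (-1.58, -3.30 to -0.02) and 15.6 CPM in *Sca*/+ anterior mesenchyme (-2.20, -3.90 to -0.67). With 6 steps in the low column against 11 and 12, these calls are loosely bounded. In the WT anterior jaw *HDAC8* was lower in epithelium, at 7.79 CPM, than in mesenchyme, at 20.9 CPM (-1.43, -2.58 to -0.38). *HDAC2* and *HDAC3* had no call, and *HDAC6*, a cytoplasmic deacetylase of tubulin, was at 44.9 CPM in *Sca*/+ against 18.4 CPM in WT anterior epithelium (1.29, 0.65 to 1.97).

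Sirtuins, deacylases that consume NAD, were the family most often below the filter, with 3 of 7 compared. *SIRT2*, mainly a cytoplasmic deacetylase, was at 44.8 CPM in *Sca*/+ posterior, 56.2 in *Sca*/+ anterior and 36.8 in WT anterior epithelium, and at 65.2 in *Sca*/+ posterior, 41.7 in WT posterior, 49.4 in *Sca*/+ anterior and 15.2 in WT anterior mesenchyme. Its *Sca*/+ value was the higher in each tissue, with differences of 0.61 in anterior epithelium, 1.71 in anterior mesenchyme (0.90 to 2.55) and 0.64 in posterior mesenchyme, of which the second was called. No other chromatin gene reached 0.58 log2 units (1.5-fold) in 1 direction in all 3 genotype comparisons, and 4.24% of all genes did so upward. The WT anterior mesenchyme was again the low column, giving calls of 1.46 against posterior WT mesenchyme (0.68 to 2.28) and of 1.28 for WT anterior epithelium over it (0.52 to 2.09). *SIRT1*, a nuclear deacetylase, and *SIRT5*, a mitochondrial desuccinylase, were called nowhere.

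Subunits of the BAF and PBAF complexes, which open chromatin at enhancers and promoters, had a call for 3 of the 11 compared, beside the 64.5% of all genes. In none of the 9 comparisons was more than 1 subunit called. *SMARCA2*, one of the alternative ATPase motors, stayed between 263.4 and 422.9 CPM, and *SMARCA4*, the other, between 31.4 and 70.8 CPM. *SMARCB1*, a core subunit and human tumour suppressor, was at 61.2 CPM in *Sca*/+ against 26.0 CPM in WT posterior mesenchyme (1.24, 0.63 to 1.89). That WT value was its lowest and was also below the anterior WT mesenchyme at 54.1 CPM (-1.06, -1.74 to -0.42). *SMARCC1*, a scaffold subunit, was at 133.3 CPM in epithelium against 49.4 CPM in mesenchyme of the *Sca*/+ anterior jaw (1.43, 0.94 to 1.96). *SMARCD2*, an accessory subunit, was at 115.2 CPM in *Sca*/+ against 47.5 CPM in WT anterior epithelium (1.28, 0.88 to 1.69). The DNA-binding subunits *ARID1A*, *ARID1B* and *ARID2* had no call.

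Of the 4 remaining SMARC ATPases 3 had a call, beside 64.5% of all genes. *SMARCA5*, a motor of the ISWI complexes that space nucleosomes, was at 51.3 CPM in *Sca*/+ posterior, 69.3 in *Sca*/+ anterior and 119.0 in WT anterior epithelium, and at 26.1 in *Sca*/+ posterior, 36.1 in WT posterior, 24.7 in *Sca*/+ anterior and 78.7 in WT anterior mesenchyme. The epithelium was above the matched mesenchyme each time, by 0.98 in the *Sca*/+ posterior jaw, 1.49 in the *Sca*/+ anterior jaw (0.79 to 2.26) and 0.60 in the WT anterior jaw, with only the second called. That call and its genotype call in anterior mesenchyme use the *Sca*/+ anterior mesenchyme, the shallowest column, where *SMARCA5* held 19 steps. The 2 WT anterior columns were the highest, and in mesenchyme that column was above both *Sca*/+ anterior (-1.67 for *Sca*/+ minus WT, -2.46 to -0.96) and WT posterior (-1.12 for posterior minus anterior, -1.69 to -0.58). *SMARCAD1*, which helps keep heterochromatin through DNA replication, was at 94.2 to 119.0 CPM in the 3 epithelial columns and at 32.3 to 75.8 CPM in the 4 mesenchymal ones. Its compartment differences were 1.55 in the *Sca*/+ posterior jaw (1.13 to 1.98), 0.88 in the *Sca*/+ anterior jaw and 0.65 in the WT anterior jaw, and only the largest was called.

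*SMARCA5* and *SMARCAD1* were the chromatin genes at least 0.58 log2 units higher in epithelium in all 3 compartment comparisons, as *HDAC7* and *HDAC9* were the lower ones. Of these, *HDAC9* had passed the filter through its mesenchymal columns. Over all genes 5.4% were that much higher and 9.7% that much lower throughout. Summed markers of cycling cells were also higher in epithelium: the 9 compared summed to 875.6 to 1140 CPM there against 260.5 to 646.7 CPM in mesenchyme. Of them 3, 2 and 6 were called higher in the WT anterior, *Sca*/+ anterior and *Sca*/+ posterior jaw and none lower. Their median was higher in epithelium of the WT anterior (5.86 against 4.82 log2 CPM) and *Sca*/+ posterior jaw (5.83 against 4.57). In the *Sca*/+ anterior jaw, where *SMARCA5* had its call, it was lower (5.62 against 5.77). The part of cycling cells in the differences of *SMARCA5* and *SMARCAD1* was not tested.

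*SMARCAL1*, an annealing helicase of stalled replication forks, was at 22.1 CPM in *Sca*/+ posterior, 6.35 in *Sca*/+ anterior and 29.1 in WT anterior epithelium, and at 17.6 in *Sca*/+ posterior, 28.7 in WT posterior, 24.7 in *Sca*/+ anterior and 9.38 in WT anterior mesenchyme. It was called in 6 of 9 comparisons, more than any other chromatin gene, and every one of them involves one of its 2 low columns with 13 steps each. *Sca*/+ was below WT in anterior epithelium (-2.19, -3.22 to -1.26) and above it in anterior mesenchyme (1.40, 0.30 to 2.54). *SMARCA1*, the other ISWI motor, had no call, at 183.5 to 331.4 CPM.

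**Figure D3:**
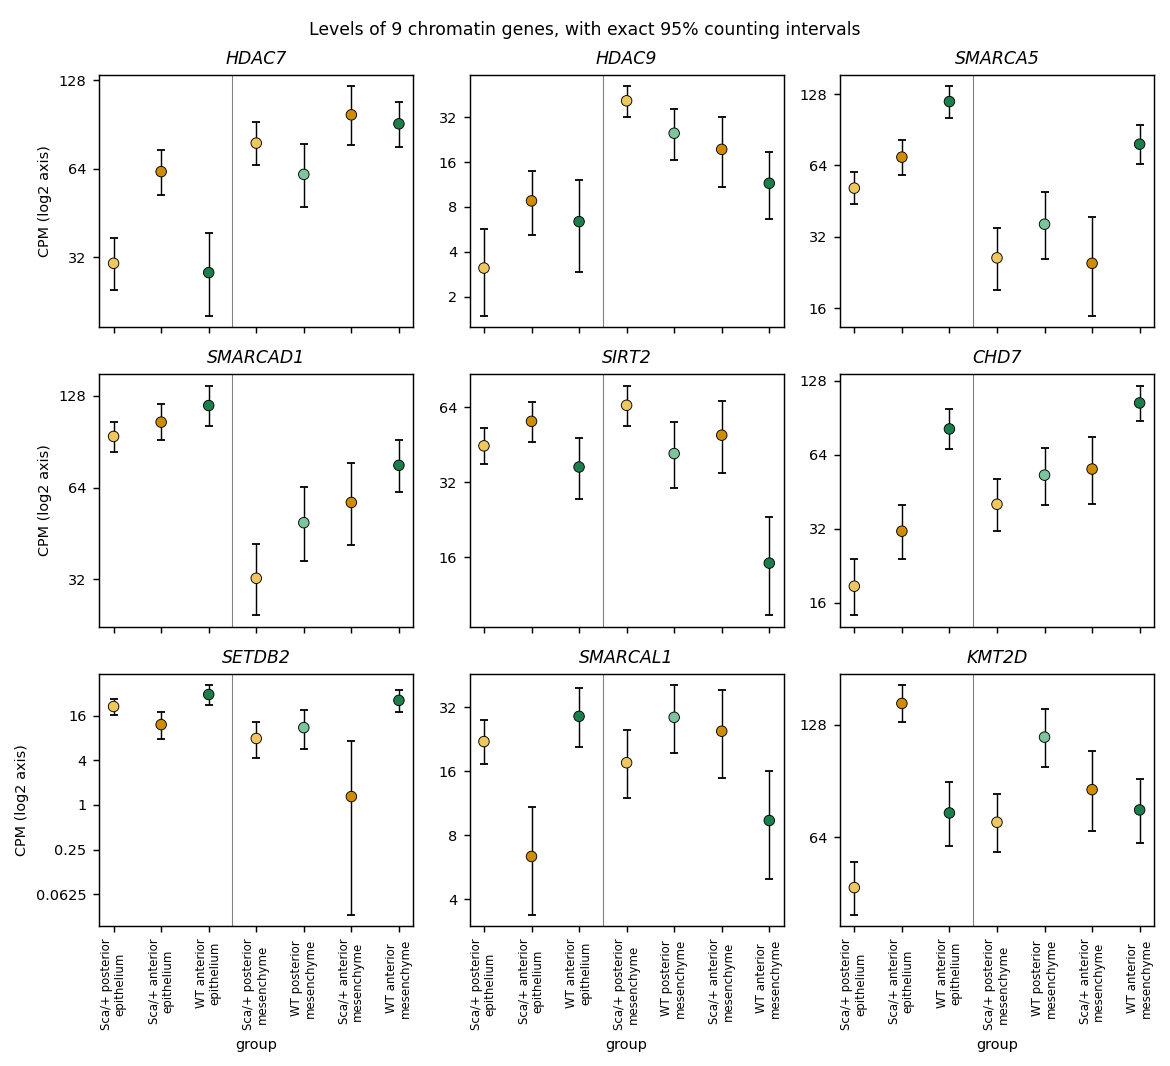
CPM on a log2 axis of 9 chromatin genes in the 7 groups, with exact 95% counting intervals; a grey line parts the 3 epithelial columns on the left from the 4 mesenchymal columns on the right, orange marks *Sca*/+ and green WT, with pale shades posterior and dark shades anterior. *HDAC9* lies at 3.11 to 8.79 CPM left of the line and at 11.6 to 41.4 CPM right of it, and *SETDB2* drops to 1.3 CPM, 1 step, in *Sca*/+ anterior mesenchyme.

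CHD remodellers had calls for 4 of 9 members, again beside the 64.5% of all genes. *CHD7* was at 18.7 CPM in *Sca*/+ posterior, 31.2 in *Sca*/+ anterior and 81.5 in WT anterior epithelium, and at 40.2 in *Sca*/+ posterior, 52.8 in WT posterior, 55.9 in *Sca*/+ anterior and 103.9 in WT anterior mesenchyme. Each *Sca*/+ column lay below its WT counterpart, as for 21 of the 72 genes. The difference of *CHD7* was called in anterior epithelium (-1.38, -1.85 to -0.93) and stayed within 1 log2 unit in both mesenchymes. Its epithelium was below the mesenchyme in all 3 jaw regions, called in the *Sca*/+ posterior one (-1.11, -1.63 to -0.59). *CHD1*, which follows elongating RNA polymerase, was at 117.2 CPM in *Sca*/+ against 247.9 CPM in WT anterior epithelium (-1.08, -1.32 to -0.84). *CHD3*, a motor of the NuRD co-repressor, was at 173.8 CPM in *Sca*/+ against 85.0 CPM in WT anterior epithelium (1.03, 0.73 to 1.34), whereas the other NuRD motor, *CHD4*, lay between 194.1 and 277.6 CPM in all 7 columns. *CHD8*, a relative of *CHD7*, was at 35.8 CPM in posterior against 71.8 CPM in anterior *Sca*/+ epithelium (-1.0, -1.37 to -0.64).

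The ARID proteins outside BAF had 1 call among 4, beside 64.5% of all genes with a call. It was that of *ARID3B*, at 23.4 CPM in *Sca*/+ against 11.3 CPM in WT anterior epithelium (1.05, 0.21 to 1.96). *ARID4A* and *ARID4B*, subunits of a SIN3 co-repressor, and *ARID5B* were called nowhere.

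Several families hold paralogues, and some of these, such as the BAF motors, can replace each other in a complex. Others, such as the nuclear *SIRT1* and the mainly cytoplasmic *SIRT2*, were paired as relatives only. The ratio of a pair within a column does not depend on the scaling of that column. Changes of such log2 ratios are given with approximate 95% counting intervals. *SMARCA5* relative to *SMARCA1* was at -2.58 in *Sca*/+ posterior, -1.82 in *Sca*/+ anterior and -0.62 in WT anterior epithelium, and at -3.67 in *Sca*/+ posterior, -3.05 in WT posterior, -3.65 in *Sca*/+ anterior and -1.24 in WT anterior mesenchyme. The ratio was lower in *Sca*/+ than in WT anterior epithelium by -1.19 (-1.58 to -0.80) and anterior mesenchyme by -2.41 (-3.16 to -1.66), and lower in posterior than in anterior WT mesenchyme by -1.81 (-2.39 to -1.23). Both anterior WT columns thus held relatively more *SMARCA5* than the other 5.

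*CHD7* relative to *CHD8* changed sign, at -0.94 and -1.20 in *Sca*/+ posterior and anterior epithelium and above 0 in the other 5 columns. The *Sca*/+ ratio in anterior epithelium differed from the WT ratio of 1.14 by -2.34 (-2.98 to -1.71). *SIRT1* relative to *SIRT2* was at 1.11 in *Sca*/+ against 3.18 in WT anterior mesenchyme (-2.08, -2.93 to -1.22), and *HDAC1* relative to *HDAC2* at -0.36 against -1.82 (1.45, 0.76 to 2.15). Also in anterior mesenchyme the scaffold pair *SMARCC1* and *SMARCC2* was at -1.63 in *Sca*/+ against -0.08 in WT (-1.55, -2.19 to -0.92). *KMT2C* relative to *KMT2D* was at 2.33 in posterior against 0.88 in anterior *Sca*/+ epithelium (1.45, 1.12 to 1.77). Ratios also changed by 1 log2 unit or more in at least 1 comparison for *SMARCD1* to *SMARCD2*, *ARID1A* to *ARID1B*, *KDM1A* to *KDM1B*, *KDM2A* to *KDM2B*, *KDM4A* to *KDM4B*, *KDM5A* to *KDM5B*, *KMT2A* to *KMT2B*, *SETD1A* to *SETD1B*, *CHD1* to *CHD2*, *HDAC7* to *HDAC9* and *SETDB1* to *SETDB2*. In 3 of these pairs, *ARID1A* to *ARID1B* (-1.01, -1.56 to -0.46, posterior against anterior *Sca*/+ mesenchyme), *KMT2A* to *KMT2B* (1.59, 0.67 to 2.51, *Sca*/+ against WT anterior mesenchyme) and *KDM4A* to *KDM4B* (1.10, 0.56 to 1.64, posterior against anterior *Sca*/+ epithelium), neither gene had a called difference of its own. Most of the pairs thus reached 1 log2 unit somewhere, while *HDAC4* to *HDAC5*, *KDM6A* to *KDM6B*, *CHD3* to *CHD4* and *ARID4A* to *ARID4B* did not. A ratio carries the counting error of both genes in both columns. Pairs of other genes were not read, so how often their ratios change this much is not known. For the BAF motors, *SMARCA4* relative to *SMARCA2* lay between -3.67 and -2.32 and changed by less than 1 log2 unit in every comparison. Its interval left out 0 in 3 of them, for posterior against anterior WT mesenchyme (-0.75, -1.28 to -0.21) and *Sca*/+ epithelium (-0.74, -1.16 to -0.32) and for epithelium against mesenchyme of the *Sca*/+ posterior jaw (-0.79, -1.27 to -0.31).

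**Figure D4:**
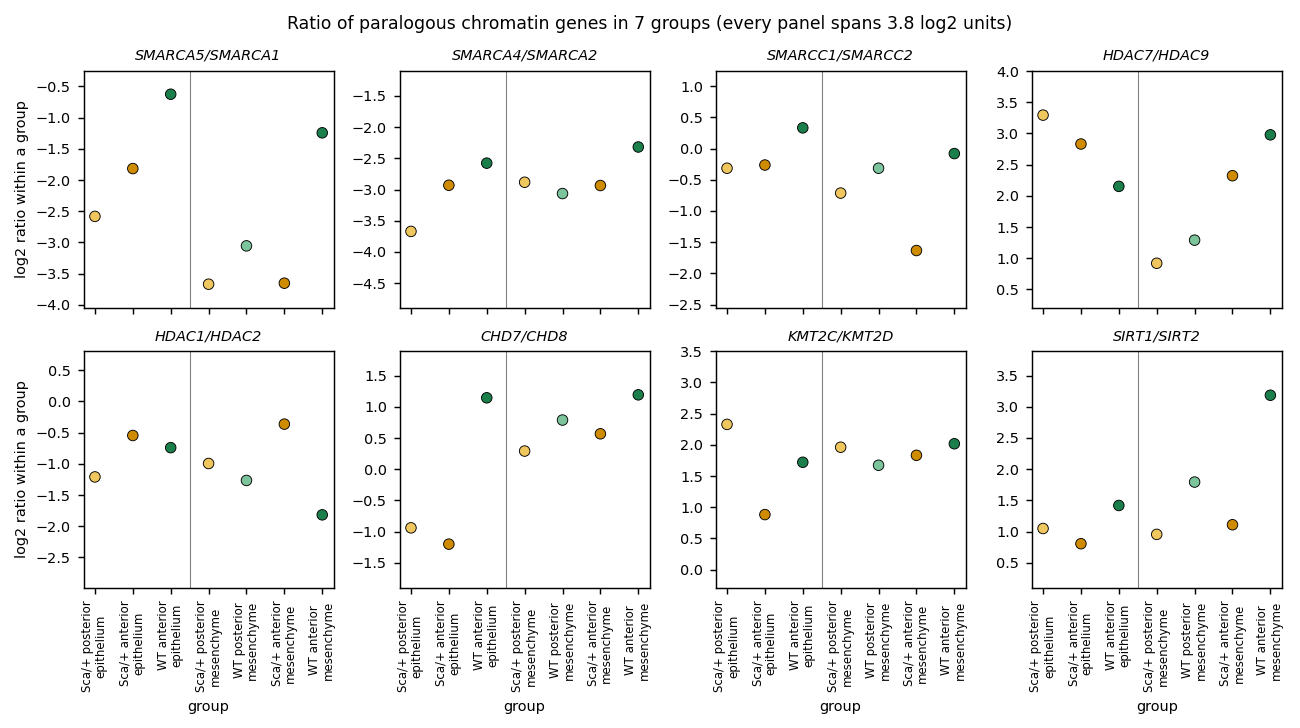
Log2 ratio of the CPM of 8 pairs of paralogous chromatin genes within each of the 7 groups, every panel spanning 3.8 log2 units; a grey line parts the 3 epithelial from the 4 mesenchymal columns, with orange for *Sca*/+ and green for WT. *SMARCA5* relative to *SMARCA1* runs from -3.67 to -0.62, and *SMARCA4* relative to *SMARCA2* from -3.67 to -2.32.

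Other chromatin regulators, under symbols that the 79 genes do not cover, were read from lists of 142 genes, of which 126 were in the table and 121 were compared. In the genotype comparisons anterior epithelium had 16 higher and 7 lower in *Sca*/+, with 9 and 6 in anterior mesenchyme and 8 and 5 in posterior mesenchyme. Position gave 5 and 5 in WT mesenchyme, 4 and 2 in *Sca*/+ mesenchyme and 3 and 4 in *Sca*/+ epithelium, and compartment 6 and 2, 15 and 4, and 8 and 5 in the WT anterior, *Sca*/+ anterior and *Sca*/+ posterior jaw. As shares of the 121, these are 13.2% and 5.79%, 7.44% and 4.96%, and 6.61% and 4.13% between genotypes, 4.13% and 4.13%, 3.31% and 1.65%, and 2.48% and 3.31% between positions, and 4.96% and 1.65%, 12.4% and 3.31%, and 6.61% and 4.13% between compartments. The shares of all genes are those given above for each comparison, 11.5% and 9.34% in the first. The medians of the 121 genes lay between -0.14 and 0.20 log2 units.

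Polycomb repressive complex 2, the writer of the silencing mark that KDM6 enzymes remove, had 3 of 8 genes lower and none higher in *Sca*/+ than in WT anterior epithelium, beside 9.34% of all genes lower and 11.5% higher, with a median of -0.76 (all genes 0.00). *EED*, a core subunit, was at 10.3 against 27.6 CPM (-1.43, -2.27 to -0.63), and *SUZ12*, another, at 50.8 against 108.4 CPM (-1.09, -1.47 to -0.72). *MTF2*, an accessory subunit, was lower there (-1.20, -1.59 to -0.81) and in anterior mesenchyme (-1.28, -1.92 to -0.69), while the catalytic subunit *EZH2* was at 73.7 against 115.5 CPM in anterior epithelium, a difference of -0.65 that was not called. Acetyltransferases and their partners, the opponents of the deacetylases, had 5 of 17 genes higher and none lower in the same comparison, beside the same shares, but their median was 0.09. These were *ING4* (1.58), *KAT7* (1.31), *CREBBP* (1.24), *KAT8* (1.23) and *BRPF1* (1.17), and *KAT7* was also higher in *Sca*/+ anterior mesenchyme, at 67.7 against 23.1 CPM (1.55, 0.89 to 2.23). *UHRF1*, which couples DNA methylation to replication, was at 64.0 against 19.1 CPM in anterior epithelium (1.74, 1.14 to 2.40) but lower in *Sca*/+ than in WT posterior mesenchyme, at 2.83 against 17.6 CPM (-2.64, -4.41 to -1.17). That low value rests on few steps, 1 step being 0.57 CPM in *Sca*/+ posterior mesenchyme.

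In the other lists the largest called differences belonged to several complexes. *RING1*, a ubiquitin ligase of Polycomb repressive complex 1, was at 20.8 against 2.17 CPM in *Sca*/+ and WT anterior mesenchyme (3.26, 1.46 to 5.69) and at 21.0 against 5.56 CPM in *Sca*/+ and WT posterior mesenchyme (1.91, 0.66 to 3.45). With 1 step worth 0.72 CPM in WT anterior and 0.93 CPM in WT posterior mesenchyme, both WT values rest on few steps. *GATAD2A*, a NuRD subunit, was at 13.2 CPM in *Sca*/+ against 53.8 CPM in WT anterior epithelium (-2.03, -2.72 to -1.38). *NSD2*, a histone H3 methyltransferase, was at 18.2 CPM in *Sca*/+ against 65.0 CPM in WT anterior mesenchyme (-1.83, -2.76 to -1.01). These genes were thus called in different tissues and directions. *RBBP5* is a shared subunit of the COMPASS complexes that hold the KMT2 and SETD1 enzymes. It was at 10.2 CPM in *Sca*/+, few steps of 0.57 CPM each, against 34.3 CPM in WT posterior mesenchyme (-1.75, -2.65 to -0.90). *HCFC1*, another partner, was higher in *Sca*/+ anterior epithelium (1.56, 1.3 to 1.83). *DMAP1*, a subunit of the SRCAP and TIP60 complexes, was higher in posterior than in anterior WT mesenchyme (1.95, 1.04 to 2.93). *DPF3*, a BAF subunit known from heart and skeletal muscle, was lower in posterior than in anterior *Sca*/+ mesenchyme (-1.84, -3.23 to -0.53).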

How the data were processed

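RNA was sequenced from laser-captured dental epithelium and mesenchyme of hatchling *P. vitticeps* (NextSeq 500, rRNA-depleted Ovation SoLo libraries). The authors trimmed reads with Trimmomatic, aligned them with STAR and deposited log2 CPM values, 1 per gene and group; versions are not given in the sources used here. The 79 genes and all lists were chosen with earlier results of these data known. Values were returned to CPM, and in each column they were whole multiples of a step to within 0.0109 CPM at most. That step served as 1 count for exact Clopper-Pearson 95% intervals of a difference. Genes averaging 3 log2 CPM or more across 7 columns were kept, and a call needed 1 log2 unit and an interval without 0. Every called chromatin gene is named, with those past 0.58 log2 units in all 3 genotype or compartment comparisons, the 5 of highest mean level, the 3 of narrowest and of widest range, paralogue pairs whose ratio changed by 1 log2 unit, *EDA*, and up to 3 of each other list by largest called difference, or all where a count of 5 or fewer is given; further members are named as steady examples. No column per animal was used, so the planned limma fits, replicate block and leave-one-out fits were not run. RefSeq names (PviZW2.1) matched 78 of the 79 symbols. Alternatives varied the filter, the size rule, the scaling, a pseudocount of 1 CPM and a minimum of 20 steps. Scripts were tested on simulated counts and run with scipy 1.17.1, pandas 2.3.3 and numpy 2.4.6 under Python 3.11.15.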

Additional observations from a re-analysis of the deposited data

Results flagged for a closer look

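Called differences of opposite sign under the same contrast were found for 4 chromatin genes. *SMARCAL1* had a genotype difference of -2.19 log2 units in anterior epithelium and 1.40 in anterior mesenchyme, and a compartment difference of -1.96 in the *Sca*/+ and 1.63 in the WT anterior jaw. *HDAC9* had a position difference of -1.50 in *Sca*/+ epithelium, 1.08 in *Sca*/+ mesenchyme and 1.12 in WT mesenchyme. *KMT5C* had a position difference of 1.04 in *Sca*/+ epithelium and -1.29 in *Sca*/+ mesenchyme. *KMT5A* had a compartment difference of 1.11 in the *Sca*/+ and -1.17 in the WT anterior jaw, on 12 and 14 steps in the lower columns. Whether these pairs of effects differ between animals was not tested, since each column is 1 value. Such opposite calls were found for 1.39% of the chromatin genes between genotypes, 2.78% between positions and 2.78% between compartments, beside 2.45%, 2.69% and 1.83% of all genes.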

How the results depend on the processing

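No paired analysis was possible because the table holds 1 column per group and none per animal; for the same reason no replicate could be left out. Comparisons are given as anterior epithelium, anterior mesenchyme and posterior mesenchyme (*Sca*/+ minus WT), WT mesenchyme, *Sca*/+ mesenchyme and *Sca*/+ epithelium (posterior minus anterior), and WT anterior, *Sca*/+ anterior and *Sca*/+ posterior jaw (epithelium minus mesenchyme). The chromatin genes called were 13, 6, 5, 7, 7, 8, 8, 7 and 9. The shares of all genes are those given above for each comparison, and for the other rules only the shares never called are given. With a rule of 0.58 log2 units the chromatin genes called were 30, 19, 17, 14, 14, 19, 18, 21 and 22, with 16 never called in place of 42 (22.2%, beside 10.8% of all genes). With a rule of 2 log2 units they were 1, 1, 0, 0, 1, 0, 0, 1 and 2, with 67 genes never called (93.1%, beside 81.4% of all genes). Fewer genes could be compared above 5 log2 CPM, and the counts fell to 5 in anterior epithelium, 3 in posterior mesenchyme, 3 in WT mesenchyme, 4 in *Sca*/+ mesenchyme, 3 in *Sca*/+ epithelium, 4 in the WT anterior and 2 in the *Sca*/+ anterior jaw. With at least 20 steps in both columns they fell to 3 in anterior mesenchyme, 3 in posterior mesenchyme, 3 in WT mesenchyme, 4 in *Sca*/+ mesenchyme, 5 in the WT anterior and 2 in the *Sca*/+ anterior jaw. Without a filter 10 were called in anterior mesenchyme. Under these settings, in the order given, 67.2%, 66.7% and 54.4% of the chromatin genes were never called, beside 51.1%, 52.6% and 33.9% of all genes. Of the 70 calls, centring on the median of all genes kept 69, and upper quartile scaling and a pseudocount of 1 CPM kept 66 each. The calls lost lay at the edge of the rule, such as *SETD1A*, *SETD5*, *CHD8* and *ARID3B*. No call changed sign. Dropping the shallowest column, with the comparisons that use it, was chosen after seeing the data. It left 45 genes never called (62.5%, beside 43.4% of all genes), a count that could not fall.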

Other observations

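The 7 chromatin genes under the filter were *HDAC11*, *SETD6*, *SETD9*, *SIRT3*, *SIRT4*, *SIRT6* and *SIRT7*. *SETD6*, which in human cells methylates a subunit of NF-kB, was at 15.6 CPM in *Sca*/+ against 1.42 CPM in WT anterior epithelium, at 15.6 against 5.05 CPM in anterior mesenchyme and at 13.6 against 7.42 CPM in posterior mesenchyme. *SIRT6*, a nuclear deacylase with a role in DNA repair, was at 12.7 against 3.54 CPM, 13.0 against 1.44 CPM and 9.06 against 9.27 CPM in the same 3 pairs of *Sca*/+ and WT tissues. The WT anterior columns rest on 2 to 7 steps for both genes. *SIRT3*, a mitochondrial deacetylase, was highest in WT anterior mesenchyme, at 16.6 CPM, and at 1.70 to 5.67 CPM in the other 6 columns.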
